A study of Mus musculus with 2 samples.

Results

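Expression of 8 genes for matricellular proteins, out of 19465 genes in the deposited matrices, was described in healing mouse femora with spatial transcriptomics. The genes were chosen by name, as members of the class, at a time when earlier results of these data were known: *Sparc*, *Sparcl1*, *Postn*, *Tnc*, *Fn1*, *Thbs1*, *Thbs2* and *Thbs3*. One formalin-fixed section was measured from a Control mouse and 1 from a Loaded mouse, with the Visium assay, in which probes against each transcript are captured on an array of barcoded spots. A spot covers a small area that can hold several cells of different types. Both mice were females of a bone cell reporter (BCR) line, in which osteoblasts and osteoclasts carry fluorescent proteins, so the reporter alleles were shared by the groups. Both received a femoral osteotomy held by an external fixator at 12 weeks of age and were euthanized 5 weeks after surgery, at 17 weeks. From week 3 after surgery the Loaded mouse received cyclic mechanical loading through the fixator, and the Control mouse received sham loading. With 1 section per group no test between groups was possible. All intervals are 95% intervals that cover counting error only, and the 4 blocks into which each region was cut show the spread within a section without being replicates.

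Matricellular proteins are secreted into the extracellular matrix, where they bind collagens, growth factors and cell-surface receptors and alter how cells attach and respond. Several of them are abundant in bone matrix, in periosteum and in repair tissue, and tenascin and periostin are known from tissues under mechanical load. Their receptors are mostly integrins, with scavenger receptors for some members.

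The spots were taken in 3 regions: the spots the authors marked as bone, a rim of spots whose centres lay within 250 μm of a bone spot, and the remaining spots. The authors marked bone at the fracture site, between the middle pins of the fixator. Any bone beyond these pins therefore fell in the rim or the remaining spots. After filtering, the Control section held 131 bone, 253 rim and 1514 remaining spots, and the Loaded section held 146, 264 and 1021. The sections held 9002147 and 4910716 UMIs (unique molecular identifiers, 1 per captured probe molecule), with region medians of 2132 to 3478 UMIs per spot. The 557 barcodes found in both sections are positions of the array grid and do not link cells. Levels are given as normalized UMIs per spot, which is the summed UMIs of a region divided by the sum of its spots' size factors. They were not compared between genes, because capture differs between probes. In such sums, fewer cells of a type and less RNA per cell cannot be told apart.

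The label of the bone spots was checked against marker lists. Osteoblast markers made up 2.01% of the UMIs of Control bone spots and 0.675% of the remaining spots, and 6.49% and 0.737% in the Loaded section. Osteocyte markers made up 0.0797% of the UMIs in Loaded bone against 0.00732% in the remaining spots, but 0.00933% against 0.0115% in the Control section. In the Control rim they made up 0.00399%, so Control bone was above its rim in this list and not above the remaining spots. Skeletal muscle transcripts took 15.7% of the UMIs of Control bone spots and 8.12% of those of Loaded bone spots. Granulocyte transcripts took 0.111% in Control and 0.443% in Loaded bone. Schwann cell transcripts took 0.0379% and 0.0105% in bone, 0.0401% and 0.00994% in the rim, and 0.00513% and 0.0121% in the remaining spots. The part of these lists in the differences between sections was not tested.

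The 8 members together took 0.628% of the UMIs in Control bone, 0.485% in the rim and 0.149% in the remaining spots. In the Loaded section these shares were 0.7%, 0.45% and 0.216%. In both sections the members' summed share was highest in the bone spots and lowest in the remaining spots. *Sparc* was the largest part of this sum in bone, with 1557 of 3497 member UMIs in Control and 1851 of 2865 in Loaded. In the Loaded rim it held 2115 of 4575, so the step in the summed share from Loaded rim to bone rested largely on *Sparc*. The sum gives most weight to genes with many captured UMIs. In Loaded, *Tnc*, *Thbs1* and *Thbs2* also had higher levels in bone than in the rim. *Sparcl1*, *Postn*, *Fn1* and *Thbs3* had lower ones. The individual genes did not share 1 pattern, as the plot of levels by region shows.

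**Figure D1:**
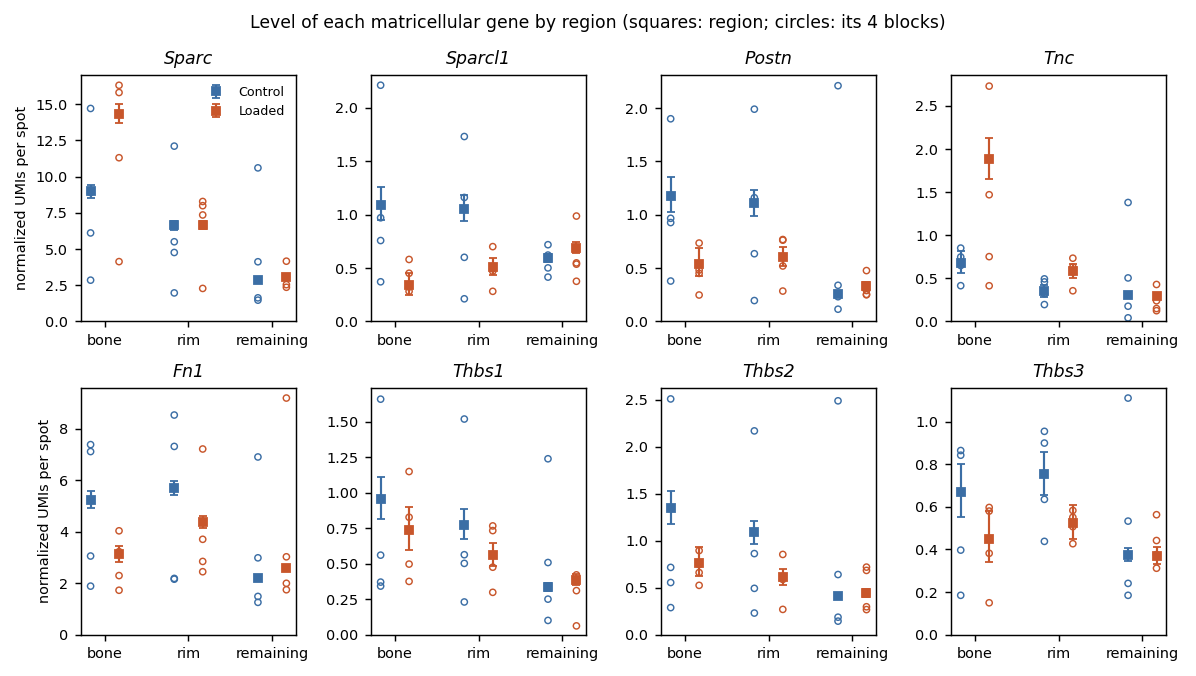
Level of each member (normalized UMIs per spot, y axis) in bone, rim and remaining spots of the Control (blue) and Loaded (orange) sections. Squares with bars are region levels with 95% counting intervals and open circles are the 4 blocks of a region. *Sparc* and *Tnc* were higher in Loaded than in Control bone (14.3 against 8.97 and 1.88 against 0.68), and the blocks of the 2 sections overlapped for every member in every region.

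Between the sections, *Sparc* and *Tnc* were higher in Loaded bone than in Control bone and *Sparcl1*, *Postn*, *Fn1*, *Thbs2* and *Thbs3* were lower. These 2 and 5 members were past the fold used here, a log2 ratio of Loaded over Control above 0.5 or below -0.5. Among the 3914 genes with at least 50 UMIs in both bone regions together, 26.3% were above and 19.5% below. The members' median ratio was -0.66 against 0.08 for all genes. In the rim 1 member was above and 4 below, against 15.7% and 18.0% of 6886 genes, with medians of -0.49 and -0.02. In the remaining spots no member passed the fold in either direction, against 16.1% and 18.1% of 10742 genes, with medians of 0.15 and -0.01. The absence of calls in the remaining spots rested on Control block 1, which held 1112 of the 1514 spots. Without it 7 of the 8 members were above the fold there, and with library totals 4 were. The shares of all genes past the fold are not given for these settings. Library totals also raised the median ratio of all genes there. No member had all 4 bone blocks of one section above those of the other, which 5.06% of genes did upwards and 2.35% downwards. The blocks of the members overlapped likewise in the rim (2.22% of genes above, 1.51% below) and in the remaining spots (1.54% and 1.98%).

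*Sparc* encodes osteonectin, a collagen- and calcium-binding glycoprotein that is abundant in bone matrix (ENSMUSG00000018593, chr11:55394500-55423183, minus strand, GRCm38). In bone its level was 8.97 in Control (interval 8.53 to 9.43, blocks 2.85 to 14.7) and 14.3 in Loaded (13.7 to 15.0, blocks 4.13 to 16.3). In the rim it was 6.63 and 6.67, and in the remaining spots 2.88 and 3.09. The level was thus highest in bone and lowest in the remaining spots of both sections. The log2 ratio of Loaded over Control was 0.68 (0.58 to 0.77) in bone, 0.01 (-0.08 to 0.10) in the rim and 0.10 (0.03 to 0.17) in the remaining spots. In bone 17.8% of genes had a ratio at or above that of *Sparc*. Leaving out 1 block at a time moved the bone ratio between 0.28 and 1.65, and the highest value came without Control block 2, which holds 44 spots. The rim ratio moved between -0.36 and 0.81 and that of the remaining spots between -0.24 and 0.94.

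*Tnc* encodes tenascin-C, a large hexameric glycoprotein of repair tissue, tendon and periosteum (ENSMUSG00000028364, chr4:63959785-64047015, minus strand). Its bone level was 0.68 in Control (0.563 to 0.814, 118 UMIs, blocks 0.415 to 0.851) and 1.88 in Loaded (1.65 to 2.13, 243 UMIs, blocks 0.414 to 2.73). The 4 Loaded blocks stood at 0.414, 2.73, 1.47 and 0.752, so the high level came from 2 of the 4 blocks, with 51 spots each. The other 2 did not exceed the highest Control block. They were small, with 22 spots each and 41743 and 42361 UMIs of all genes. The log2 ratio was 1.47 (1.15 to 1.80) in bone, with 2.35% of genes at or above it, and 0.75 to 1.78 when single blocks were left out. In the rim the levels were 0.348 and 0.58, a log2 ratio of 0.74 (0.38 to 1.10). In the remaining spots the levels of 0.303 and 0.291 gave a ratio of -0.06 (-0.28 to 0.16). *Tnc* was the member with the largest ratio in bone and in the rim, and the only member past the fold upwards in the rim.

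*Sparcl1* encodes hevin, a relative of osteonectin that in many tissues is found in vessel walls (ENSMUSG00000029309, chr5:104079111-104113733, minus strand). It had the lowest ratio of the members in bone: the level was 1.09 in Control (0.945 to 1.26, 190 UMIs, blocks 0.371 to 2.21) and 0.341 in Loaded (0.248 to 0.458, 44 UMIs, blocks 0.282 to 0.58). The log2 ratio was -1.68 (-2.19 to -1.20), with 0.996% of genes at or below it, and stayed between -1.88 and -1.30 when single blocks were left out. In the rim the levels were 1.05 and 0.508, a ratio of -1.05 (-1.34 to -0.77). In the remaining spots the order was the other way round, 0.593 and 0.689, and the ratio of 0.22 (0.07 to 0.37) was within the fold. That order depended on the blocks, because leaving out 1 at a time moved the ratio between -0.14 and 0.51. The 2 relatives *Sparc* and *Sparcl1* therefore lay on opposite sides of 0 in bone. The mural cell list (smooth muscle and pericytes) took 0.0669% of UMIs in Control bone and 0.0633% in Loaded bone, and the endothelial list 0.0472% and 0.0535%. Lower in Loaded bone were the Schwann (0.0379% and 0.0105%), fibroblast (0.536% and 0.403%), tendon (0.084% and 0.0518%) and muscle lists (15.7% and 8.12%). Higher were, among others, the osteoblast (2.01% and 6.49%) and granulocyte lists (0.111% and 0.443%). Whether any of these lists accounts for the *Sparcl1* difference was not tested.

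*Postn* encodes periostin, a matrix protein of periosteum and ligament that takes part in collagen crosslinking (ENSMUSG00000027750, chr3:54361109-54391037, plus strand). Its bone level was 1.18 in Control (1.03 to 1.35, blocks 0.379 to 1.90) and 0.542 in Loaded (0.423 to 0.685, blocks 0.248 to 0.735). The rim showed nearly the same contrast, 1.11 against 0.602, whereas the remaining spots had 0.255 and 0.333. The log2 ratios were -1.12 (-1.54 to -0.73), -0.88 (-1.14 to -0.62) and 0.39 (0.17 to 0.61) in this order. Without Control block 2 the bone ratio was -0.22.

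*Fn1* encodes fibronectin, the cell-adhesion glycoprotein of provisional matrix (ENSMUSG00000026193, chr1:71585520-71653200, minus strand). The bone level was 5.25 in Control (4.91 to 5.60, blocks 1.89 to 7.39) and 3.14 in Loaded (2.84 to 3.46, blocks 1.73 to 4.04). In the rim it was 5.71 and 4.37, and in the remaining spots 2.20 and 2.58. Unlike *Sparc* and *Tnc*, *Fn1* was not highest at the bone spots of either section. Its log2 ratios were -0.74 (-0.91 to -0.57) in bone, -0.39 (-0.49 to -0.28) in the rim and 0.23 (0.15 to 0.30) in the remaining spots. Without Control block 2 the bone ratio was -0.28. Leaving out single blocks moved the ratio of the remaining spots between -0.07 and 0.9.

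The 3 thrombospondins bind growth factors, matrix proteases and cell receptors. *Thbs1* and *Thbs2* form trimers with antiangiogenic activity, and *Thbs3* forms pentamers and is known from cartilage and growing bone. *Thbs1* (ENSMUSG00000040152, chr2:118111876-118127133, plus strand) had a bone level of 0.957 in Control and 0.736 in Loaded, a log2 ratio of -0.38 (-0.76 to -0.01) that was within the fold. *Thbs2* (ENSMUSG00000023885, chr17:14665500-14694235, minus strand) had 1.35 and 0.767, a ratio of -0.81 (-1.17 to -0.47). *Thbs3* (ENSMUSG00000028047, chr3:89215180-89226837, plus strand) had 0.668 and 0.449, a ratio of -0.57 (-1.05 to -0.11). All 3 thus had the lower level in Loaded bone, and for *Thbs1* and *Thbs2* this direction depended on 1 block. Without Control block 2 their ratios were 0.82 and 0.74. In the rim the ratios were -0.47, -0.83 and -0.52, and in the remaining spots 0.21, 0.09 and -0.01.

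The Control bone spots were not uniform. The bone spots lie in 2 strips along the shaft, here called side A and side B, and the split was made after the block values had been seen. Control side A held 62 spots, with 6.44% muscle, 3.15% osteoblast, 0.848% fibroblast and 0.148% tendon transcripts. Control side B held 69 spots, with 25.3% muscle, 0.816% osteoblast, 0.212% fibroblast and 0.0176% tendon transcripts. Osteocyte transcripts were instead higher on side B, with 0.00493% on side A and 0.0139% on side B. Granulocyte transcripts were 0.0835% on side A and 0.14% on side B. All 8 members were higher on side A than on side B, past the fold, where 27.8% of 2007 genes were and 35.9% were lower. *Sparc* was 12.6 on side A and 3.68 on side B, *Fn1* 7.39 and 2.13, and *Thbs2* 2.06 and 0.312, which was the widest gap with a log2 ratio of 2.72 (2.09 to 3.43). *Tnc* with 0.835 and 0.454 had the narrowest, 0.88 (0.28 to 1.51). Whether the marker lists that moved with the sides account for the gap was not tested.

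The Loaded bone spots did not share that gradient. Side A (71 spots, 6.09% muscle, 7.28% osteoblast transcripts) and side B (75 spots, 10.3% and 5.63%) had *Sparc* levels of 14.4 and 14.3. *Tnc* was 2.44 and 1.21, a log2 ratio of 1.01 (0.60 to 1.42), and *Fn1* 3.80 and 2.34, a ratio of 0.70 (0.39 to 1.00). *Thbs1* was on the other side, 0.524 and 0.992, a ratio of -0.92 (-1.56 to -0.30). These 3 members passed the fold, 2 upwards and 1 downwards, where 9.82% of 1507 genes were above and 18.6% below. The names A and B were given within each section, and the sides were not matched between the 2 mice.

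The bone comparison was also made against each Control side on its own, with the same Loaded spots. The ratio against all Control bone spots lies between the side ratios. Which members kept their direction was therefore set by that ratio and the gap between the Control sides. *Tnc* and *Sparcl1* had the narrowest gaps, with log2 ratios of 0.88 and 0.94. The share of all genes that stayed past the fold against both sides is not given. *Tnc* in Loaded bone was higher than on either Control side, with log2 ratios of 1.17 (0.81 to 1.54) against side A and 2.05 (1.52 to 2.63) against side B. *Sparcl1* was lower than on either, with -2.0 (-2.52 to -1.50) and -1.06 (-1.67 to -0.44). *Sparc* was 0.19 (0.08 to 0.29) against side A and 1.96 (1.77 to 2.15) against side B, so the size of its difference was set by the side chosen. The median of all genes was 0.18 against side A and 0.13 against side B, so against side A *Sparc* was near the median. *Fn1* was -1.24 and 0.56, *Thbs1* -0.91 and 1.11, and *Thbs2* -1.42 and 1.30, with opposite directions past the fold. *Postn* was -1.62 and 0.21, and *Thbs3* -0.98 and 0.34. Against side A 1 member was above and 6 below the fold (32.0% and 18.2% of 2969 genes), and against side B 5 were above and 1 below (33.1% and 25.4% of 2504 genes).

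**Figure D2:**
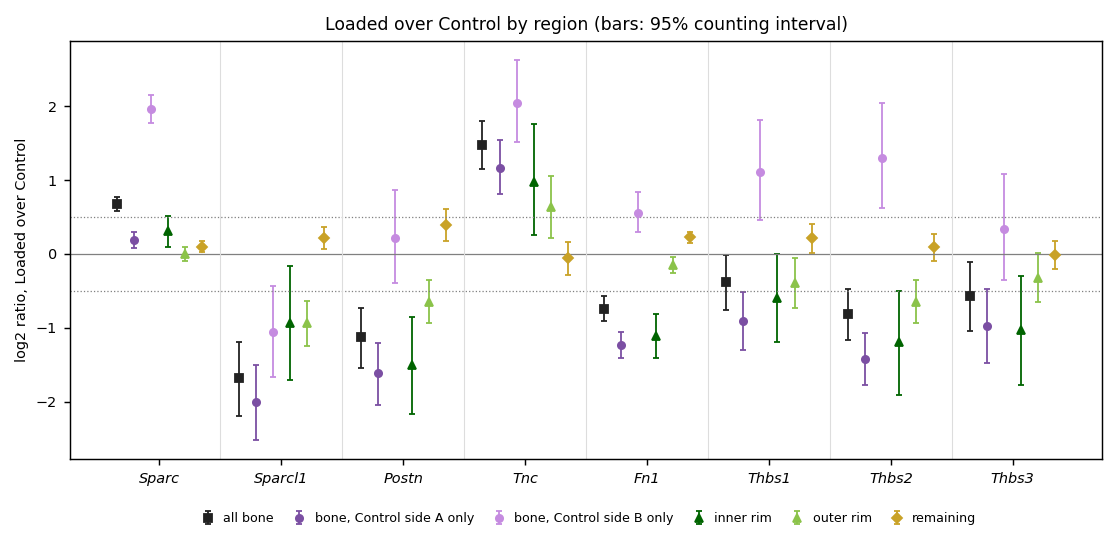
Log2 ratio of Loaded over Control (y axis) for each member (x axis) in all bone spots, in bone against Control side A or side B only, in the inner and outer rim and in the remaining spots. Bars are 95% counting intervals and dotted lines mark the fold of 0.5. Only *Tnc* (1.17 and 2.05) and *Sparcl1* (-2.0 and -1.06) kept their bone direction past the fold against both Control sides. Both side ratios use the same Loaded spots, and the share of all genes that did so is not given.

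The maps of single spots show where these levels arise. In bone the highest spot held 80 *Sparc* UMIs in Control and 137 in Loaded, and *Tnc* reached 13 and 16 UMIs. *Sparcl1* reached 9 UMIs in a Control bone spot and 4 in a Loaded one. At least 1 *Tnc* UMI was seen in 53.4% of Control and 56.2% of Loaded bone spots. These shares depend on depth, so each spot was also thinned to 1000 UMIs, which left 131 bone spots in each section and left out 15 Loaded ones. *Tnc* was then found in 19.1% of Control (12.7 to 26.9%) and 33.6% of Loaded bone spots (25.6 to 42.4%), against 4.92% and 4.54% of muscle spots outside the rim, which had median depths of 6402 and 3525 UMIs before thinning. *Sparcl1* was found in 26.0% (18.7 to 34.3%) and 11.5% (6.55 to 18.2%), against 9.97% and 14.0% of muscle spots, so its share in Loaded bone was no higher than in muscle. *Sparc* was found in 80.9% and 88.5% of the thinned bone spots, and muscle spots held it in 34.4% and 39.0%.

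**Figure D3:**
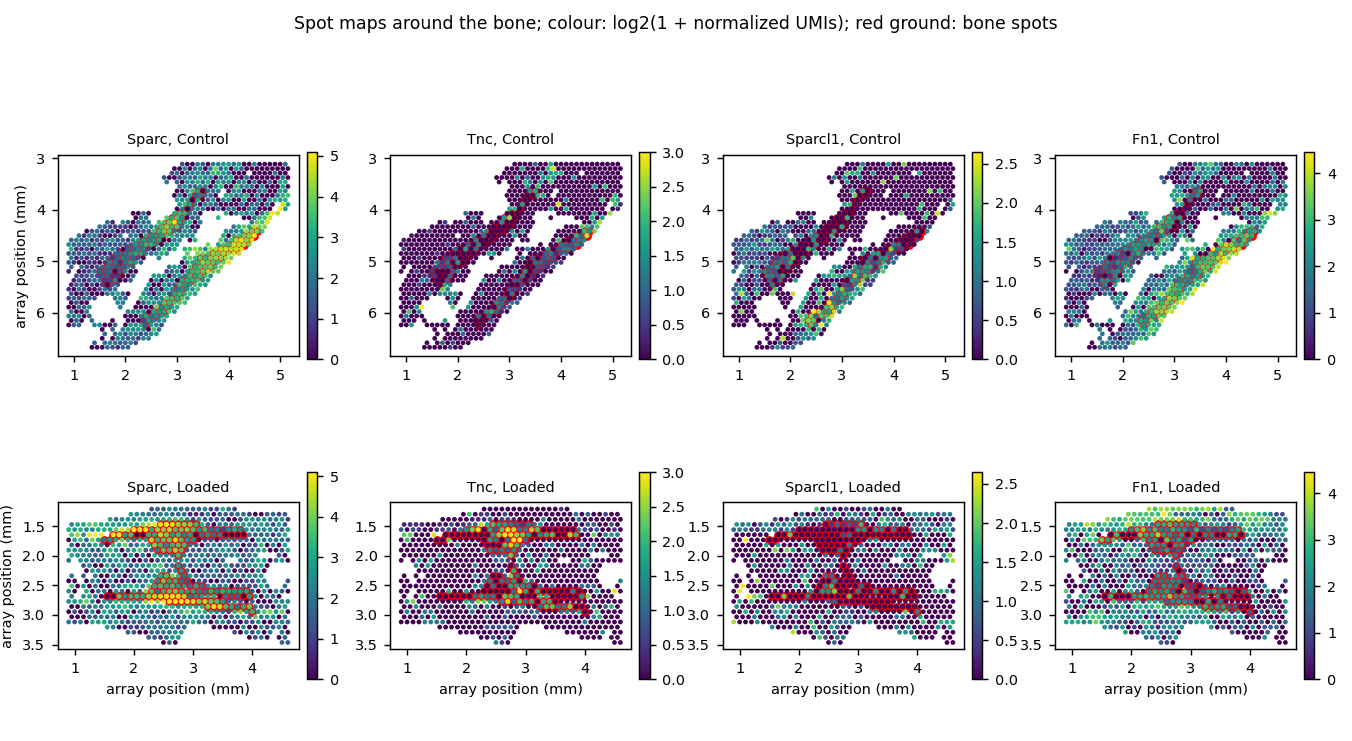
Spots around the bone of the Control (top) and Loaded (bottom) sections on the array grid (axes in mm), coloured by log2(1 + normalized UMIs) of *Sparc*, *Tnc*, *Sparcl1* and *Fn1*, with bone spots on a red ground. In Control the bright *Sparc* and *Fn1* spots sit along bone side A (levels 12.6 and 7.39) rather than side B (3.68 and 2.13), while *Sparc* in Loaded bone was 14.4 and 14.3 on the sides.

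Within a section, *Tnc* had the largest ratio of bone over rim among the members. Its level in Control bone over rim gave a log2 ratio of 0.96 (0.57 to 1.36), with 0.321% of genes at or above it, and in Loaded 1.70 (1.42 to 1.98), with 0.287% at or above it. *Sparc* followed with 0.44 (0.34 to 0.53) in Control and 1.10 (1.01 to 1.19) in Loaded. When single blocks were left out, *Sparc* moved between -0.53 (without Control bone block 2) and 1.24 (without Control rim block 2) in Control and between 0.86 and 1.28 in Loaded, and *Tnc* between 0.66 and 1.23 and between 0.98 and 1.85. In Control *Tnc* was the 1 member past the fold, where 4.55% of 5602 genes were above and 14.8% below. In Loaded *Tnc* and *Sparc* were above and *Sparcl1* below with -0.57 (-1.09 to -0.09), where 11.4% and 10.7% of 5575 genes were. *Fn1* in Loaded was -0.48 (-0.64 to -0.32), and the other members lay between -0.22 and 0.39 there.

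Against the remaining spots, all 8 members were higher in Control bone, where 17.3% of 9800 genes were above the fold and 32.8% below. *Postn* had the largest ratio, 2.21, and *Thbs3* the smallest, 0.84, while *Tnc* had 1.17, below *Postn*, *Thbs2*, *Sparc*, *Thbs1* and *Fn1*. This rank depended on the blocks, because leaving out 1 at a time moved *Tnc* between 0.62 and 2.88. The highest values so reached were 2.91 for *Thbs2*, 2.82 for *Postn*, 2.64 for *Thbs1*, 2.48 for *Sparc* and 1.93 for *Fn1*. In Loaded bone 5 members were above and 1 below, where 21.8% and 22.9% of 8755 genes were. *Tnc* led with 2.69, followed by *Sparc* with 2.22, while *Sparcl1* was -1.02. For the rim over the remaining spots, 7 members were above in Control, with *Tnc* at 0.20 (17.8% of 10004 genes above, 22.6% below), and 5 in Loaded, with *Sparcl1* at -0.44 (14.1% and 16.4% of 9274). *Sparcl1* was thus higher in bone and rim than in the remaining spots of the Control section, and lower in the Loaded one.

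The distance profile differed between the members. *Tnc* in Loaded was 1.88 in bone, 0.865 within 150 μm and 0.292 from 150 to 250 μm. It was then 0.269 at 250 to 500 μm, 0.405 at 500 to 1000 μm and 0.251 beyond 1000 μm. In Control it was 0.68, 0.429 and 0.253 over the first 3 steps, reached 0.182 at 500 to 1000 μm, and was 0.393 beyond 1000 μm. *Sparc* in Loaded was 14.3, 8.95 and 4.36 over the first 3 steps and 2.78 beyond 1000 μm, and in Control 8.97, 7.85 and 5.18, then 2.35 and 2.17 up to 1000 μm and 3.43 beyond. Between bone and the spots at 150 to 250 μm both genes thus had a larger step in Loaded than in Control. *Fn1* was level across bone and rim in Control (5.25, 5.58 and 5.86) and stepped to 1.96 at 250 to 500 μm. In Loaded it was higher in the rim than in bone (3.14, 4.27 and 4.48) and still 3.57 at 250 to 500 μm. *Sparcl1* was 1.09, 1.05 and 1.06 in Control and 0.603 at 250 to 500 μm, whereas in Loaded it was 0.341, 0.376 and 0.641 and highest beyond 1000 μm with 0.853.

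**Figure D4:**
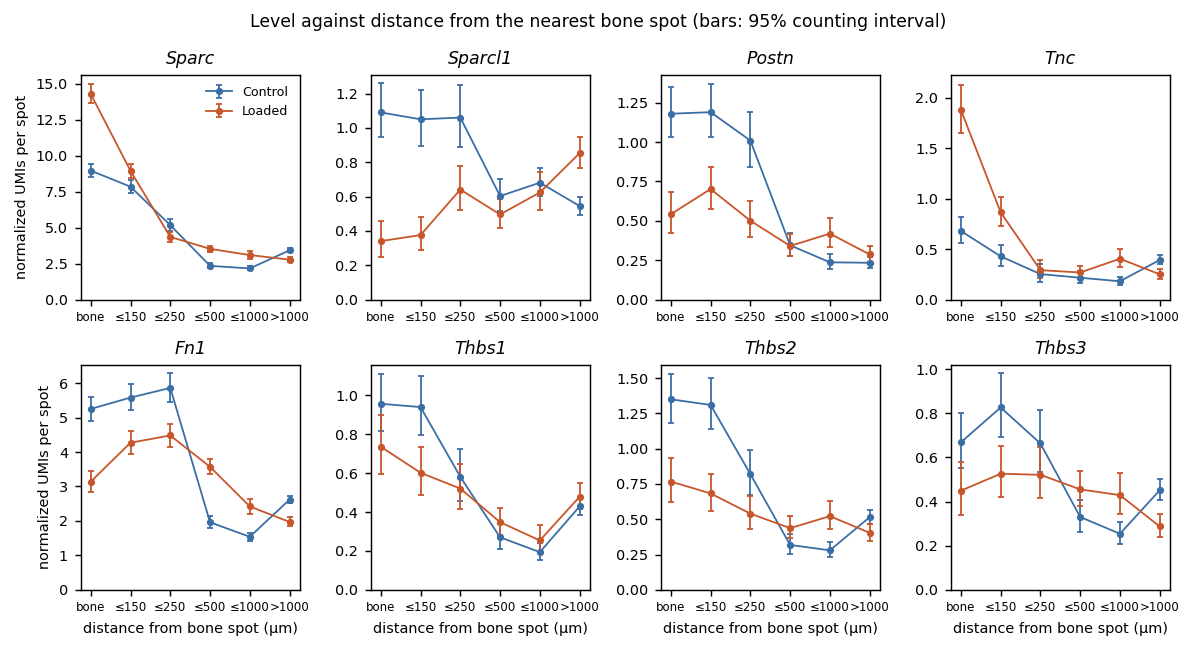
Level of each member (normalized UMIs per spot, y axis) in bone spots and in 5 classes of distance from the nearest bone spot (μm, x axis), for Control (blue) and Loaded (orange), with 95% counting intervals. *Tnc* in Loaded went from 1.88 in bone to 0.292 at 150 to 250 μm, while *Sparcl1* in Loaded was lowest in bone (0.341) and highest beyond 1000 μm (0.853).

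The rim was split into inner spots, which have bone spots on both sides across the shaft, and outer spots. Erythroid transcripts made up 10.8% and 8.96% of the UMIs of the inner rim in Control and Loaded, and 0.897% and 1.07% of the outer rim. *Fn1* was the member with the widest difference in Loaded, 1.55 inside and 5.77 outside, a log2 ratio of -1.90 (-2.14 to -1.66), against 3.34 and 6.39 in Control, a ratio of -0.93 (-1.15 to -0.73). *Sparcl1* was lower inside in both sections, -1.26 (-1.82 to -0.73) and -1.24 (-1.88 to -0.64). *Sparc* was 4.45 inside and 7.25 outside in Control, and 5.51 and 7.25 in Loaded. *Tnc* differed by no more than its interval, with -0.14 (-0.91 to 0.56) and 0.20 (-0.25 to 0.65). Of the 8 members 4 were lower inside past the fold in Control, where 21.0% of 3779 genes were above and 37.1% below, and 5 in Loaded, where 30.4% and 32.0% of 4114 were.

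The Loaded over Control differences of the rim had the same direction, past the fold, in both of these parts for 4 members. The share of all genes that did so is not given. *Tnc* was 0.98 (0.26 to 1.76) in the inner and 0.63 (0.21 to 1.06) in the outer rim, *Sparcl1* -0.93 and -0.94, and *Postn* -1.50 and -0.65. *Thbs2* was -1.20 and -0.65. Leaving out 1 block at a time moved the ratio of the whole rim towards or past 0, as far as 0.49 for *Tnc*, -0.11 for *Postn* and 0.22 for *Thbs2*. These values were no longer past the fold, whereas *Sparcl1* went no further than -0.67. With the other alternatives included, the rim ratio ranged from 0.3 to 1.06 for *Tnc* and from -2.27 to -0.5 for *Sparcl1*. The last value is at the edge of the fold. *Fn1* was past the fold in the inner rim only, -1.11 (-1.41 to -0.81) against -0.15 (-0.26 to -0.04). *Sparc* had the same outer level of 7.25 in both sections and inner levels of 5.51 and 4.45. Above and below the fold lay 20.8% and 18.3% of 2186 genes in the inner rim, and 11.4% and 17.4% of 5293 in the outer rim.

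Outside the rim most members were lower in spots rich in muscle. Compared with those spots, 7 members were above the fold in the other spots and 1 below in Control, and 5 above and 0 below in Loaded. Spots with at least 10% muscle transcripts had a *Tnc* level of 0.152 in Control, against 0.859 in the other spots, above its Control bone level of 0.68, a log2 ratio of 2.50 (2.22 to 2.78). In Loaded these were 0.178 and 0.508, a ratio of 1.51 (1.15 to 1.88). *Sparcl1* was the member with the opposite order, 0.65 in muscle spots and 0.382 in the others in Control, and 0.736 and 0.60 in Loaded. *Fn1* was 1.74 and 3.90 in Control but 2.58 and 2.57 in Loaded. Of all genes 36.4% were above and 32.5% below the fold in Control, and 28.8% and 27.9% in Loaded. The Control remaining spots held 3575 UMIs of the chondrocyte list (0.0485% of UMIs) and the Loaded ones 127 (0.00365%). The sections thus did not cover the same tissue outside the rim. The Loaded over Control ratio of *Tnc* in the remaining spots was 1.65 without Control block 1.

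Over the 12 blocks of the Control section, the members other than *Sparcl1* varied together. Pearson correlations of their log2 levels ranged from 0.64 for *Tnc* and *Thbs3* to 0.96 for *Sparc* with *Postn* and *Thbs1* with *Thbs2*, and *Sparcl1* had -0.04 to 0.53 with the others. Correlations of these 7 members with the muscle list were -0.98 to -0.76, and with the fibroblast list 0.71 to 0.96. In the Loaded section the members split. *Sparc* and *Tnc* had 0.82 and *Sparc* and *Thbs2* 0.79, but *Sparc* and *Fn1* had 0.22, *Tnc* and *Fn1* -0.04 and *Fn1* and *Thbs1* -0.39. By ranks (Spearman) the last 3 were 0.40, 0.03 and 0.08, so both negative signs were lost. *Sparc* followed the osteoblast list (0.96), *Tnc* the osteoclast (0.87), osteocyte (0.83) and osteoblast (0.82) lists, *Fn1* the macrophage list (0.94) and *Sparcl1* most nearly the mural list (0.62). *Sparcl1* had 0.59 with the adipocyte list in the same section. In Control the highest value of *Sparcl1* was 0.68, with the endothelial list. It had 0.64 with the mural and -0.63 with the adipocyte list there. With the Schwann list *Sparcl1* had 0.55 in Control and 0.31 in Loaded. In Control *Sparc* and *Tnc* also had 0.91 and 0.90 with the osteoblast list. Of the other members *Thbs1* had 0.88 with it, *Postn* and *Thbs2* 0.85, *Fn1* 0.68, *Thbs3* 0.59 and *Sparcl1* -0.18. The highest value of *Sparc* in Control was 0.92, with the fibroblast list. There *Tnc* had 0.80 with the osteoclast list but 0.15 with the osteocyte list. *Fn1* had 0.89 with the macrophage list in Control, where the other members except *Sparcl1* had 0.74 to 0.87. Its highest value in Control was 0.96, with the fibroblast list. The blocks share 1 library, its depth and the size factors, so these values describe the sections and have no p.

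**Figure D5:**
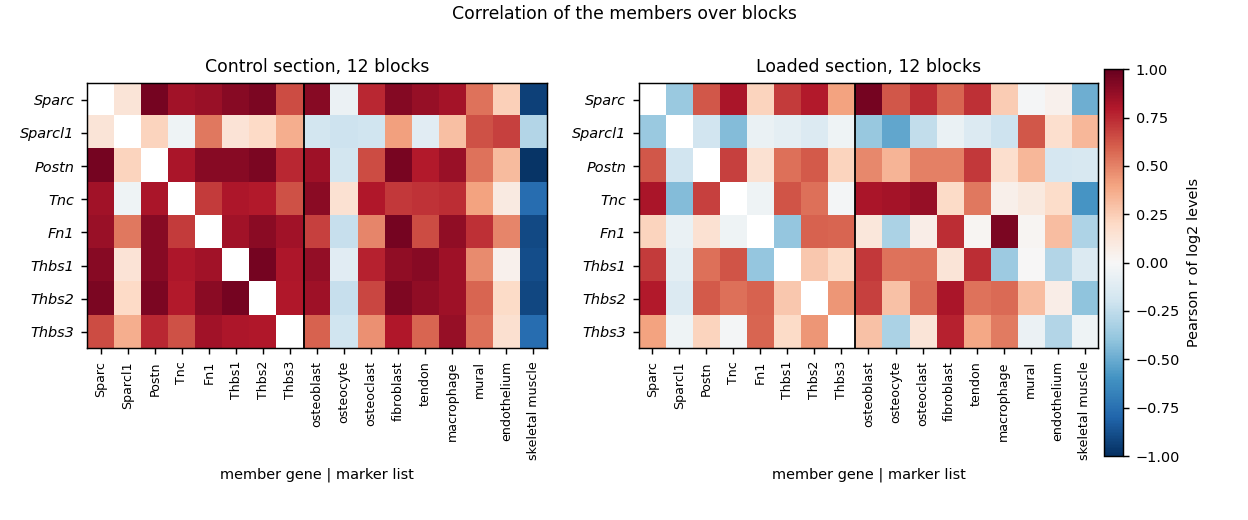
Pearson correlation (colour, -1 to 1) of log2 levels over the 12 blocks of each section, between members (left of the black line) and with marker lists (right of it). In Control the rows other than *Sparcl1* are red for each other (0.64 to 0.96), whereas in Loaded *Fn1* and *Tnc* have -0.04. *Fn1* has 0.89 in Control and 0.94 in Loaded with the macrophage list. In Control the other members except *Sparcl1* have 0.74 to 0.87 with that list.

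The genes most like each member were found by the correlation over all 24 blocks among 4329 genes with at least 500 UMIs. For *Sparc* these were the collagen genes *Col5a2* (0.964), *Col1a1* (0.955) and *Col5a1* (0.933). For *Tnc* they were *Spp1* (0.878), which encodes osteopontin, *Id3* (0.871) and *Fat1* (0.868). For *Postn* they were *Mgp* (0.913), *Itgbl1* (0.887) and *Parva* (0.882), and for *Fn1* *Pcolce* (0.924), *Sod3* (0.923) and *Pi16* (0.917), the last a fibroblast marker. *Sparcl1* had the weakest neighbours, *Tmem100* (0.786), *Ltbp4* (0.764) and *Myl12a* (0.737). *Thbs1* was nearest to *Fmod* (0.888), *Col5a2* (0.816) and *Fat1* (0.808), *Thbs2* to *Serpinf1* (0.924), *Lum* (0.918) and *Loxl1* (0.904), and *Thbs3* to *Fkbp9* (0.874), *Dpysl3* (0.852) and *Col8a1* (0.841). *Fmod* and *Lum* encode proteoglycans that bind fibrillar collagen.

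The 250 bases before the RefSeq start of *Sparc* and *Tnc*, which were higher in Loaded bone, and of *Postn*, which was lower, are shown on the strand of the gene (GRCm38.p6, from RefSeq). The *Sparc* start used by RefSeq lies inside the interval given for the gene above. The TATA motif TATAAA was searched on both strands together with the CCAAT box, the GC box GGGCGG and the AP-1 site TGANTCA, and capitals mark matches. The windows are chr11:55420081-55420330 (minus strand) for *Sparc*, chr4:64047016-64047265 (minus strand) for *Tnc* and chr3:54360857-54361106 (plus strand) for *Postn*.
Sparc: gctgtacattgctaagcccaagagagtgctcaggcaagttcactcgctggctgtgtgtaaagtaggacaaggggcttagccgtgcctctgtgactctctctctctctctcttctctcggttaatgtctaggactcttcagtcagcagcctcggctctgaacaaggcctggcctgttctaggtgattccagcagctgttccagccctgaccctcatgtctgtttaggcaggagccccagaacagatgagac
Tnc: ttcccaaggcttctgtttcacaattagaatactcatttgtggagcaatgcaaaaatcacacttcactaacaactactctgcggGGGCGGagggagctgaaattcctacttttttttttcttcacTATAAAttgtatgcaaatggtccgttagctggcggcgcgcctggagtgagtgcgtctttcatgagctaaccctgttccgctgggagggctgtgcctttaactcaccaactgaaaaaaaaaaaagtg
Postn: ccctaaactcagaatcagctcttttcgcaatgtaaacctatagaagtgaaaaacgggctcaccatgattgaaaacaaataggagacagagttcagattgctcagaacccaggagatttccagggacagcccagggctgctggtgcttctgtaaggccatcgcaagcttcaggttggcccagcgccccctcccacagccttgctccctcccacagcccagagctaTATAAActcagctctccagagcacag

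*Postn* held TATAAA 26 bases before the start. *Tnc* held TATAAA 126 bases and GGGCGG 167 bases before the start, and *Sparc* held none of the 4 motifs. Among 32851 promoter windows of the same length, 12.4% held the TATA motif, 33.8% the CCAAT box, 32.7% the GC box and 6.75% the AP-1 site. A window was found for 5 of the 8 members. Of those shown, *Tnc* and *Postn*, which lay on opposite sides of 0 in bone, both held TATAAA.

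Other genes of the class were taken from a list of 19, of which 12 had at least 50 UMIs in the bone comparison. There 1 was above and 7 below the fold, with a median of -0.78, against 26.3% and 19.5% of all genes and a median of 0.08. The 1 above was *Spp1*, a mineral-binding phosphoprotein, with levels of 3.0 in Control and 9.09 in Loaded and a log2 ratio of 1.60 (1.45 to 1.75). The lowest were *Ccn2*, a growth factor-binding protein, with -3.57 (-4.07 to -3.12), and *Ccn3* of the same family with 1.07 and 0.349, a ratio of -1.61 (-2.12 to -1.14). In the rim 2 of 12 were above, *Tnn* (tenascin-W) with 0.77 and *Tgfbi* with 0.69, and 5 below, led by *Ccn2* with -2.53 and *Ccn1* with -0.86, against 15.7% and 18.0% of all genes. In the remaining spots 4 of 15 were above, led by *Ccn3* with 0.94 and *Spp1* with 0.82, and 4 below, led by *Comp* with -1.12 and *Ccn2* with -0.99, against 16.1% and 18.1% of all genes.

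Of 13 receptor genes, 10 were counted in bone, with 2 above, 2 below and a median of 0.04, shares close to the 26.3% and 19.5% of all genes. *Stab1*, a scavenger receptor for osteonectin on macrophages and sinusoidal endothelium, had a log2 ratio of 0.66 (0.10 to 1.22), and *Itgb3*, the integrin subunit of osteoclasts, 0.58 (-0.23 to 1.41), an interval that includes 0. *Lrp1*, an endocytic receptor for thrombospondins, had 47 UMIs in Control and 6 in Loaded bone, a ratio of -2.54 (-4.06 to -1.31), and *Itgb5* -0.61 (-1.10 to -0.14). In the rim *Stab1* was 0.83, *Itgb5* -0.67 and *Lrp1* -1.63, with 1 of 11 above and 2 below (15.7% and 18.0% of all genes). In the remaining spots 5 of 13 were above, led by *Itga8* with 1.30 and *Itga9* with 0.73, and *Lrp1* with -0.86 was the 1 below (16.1% and 18.1% of all genes). *Lrp1* was thus lower in Loaded in all 3 regions, on few UMIs in bone.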

How the data were processed

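The UMI counts per gene and spot were made by the authors with SpaceRanger 2.0.0 against mm10, per the labels, and were deposited without normalization. The submitters' processing notes also name R 4.3.1 and Seurat. Spots with at least 500 UMIs and 250 genes were kept, which removed 64 Control and 5 Loaded spots, all but 1 outside the rim. Spots lay 100 μm apart. Bone spots were those the authors listed. The rim and the remaining spots were set by distance from them.

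Summed UMIs were divided by summed size factors from scran 1.30.0 (R 4.3.3) over all kept spots. Log2 ratios have exact conditional binomial intervals, levels exact Poisson intervals, and shares exact binomial (Clopper-Pearson) intervals. PCR and capture spread is not covered. Genes with at least 50 UMIs over both regions were counted, and a pseudocount of 0.05 entered the correlations. Each region was cut in 4 at the medians of the bone spots along and across their first principal component, which was tilted against the shaft. The sides of the bone and the inner and outer rim used the shaft axis. TMM factors came from edgeR 4.0.16, and other steps used Python 3.11.15, numpy 2.4.6, scipy 1.17.1, pandas 2.3.3 and matplotlib 3.10.9. The computations were tested on simulated data.

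Besides the members, the genes named were the 3 most correlated with each member and, from the lists of other matricellular genes and receptors, the 2 highest and 2 lowest past the fold. The members and lists were chosen with earlier results of these data known. Of 153 symbols in the lists, 2 were not matched. Coordinates are from GENCODE on GRCm38 and promoters from RefSeq GRCm38.p6. Alternatives were other scalings, filters, rim widths, equal spot weights, spots poor in muscle and blocks left out, and the splits by bone side were added after seeing the data.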

Additional observations from a re-analysis of the deposited data

How the results depend on the processing

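With 1 section per group, animal, section and loading cannot be told apart, and 44 *Sparcl1* UMIs in Loaded bone and 21 *Tnc* UMIs in the Control inner rim limit the precision. No paired analysis was possible because each group had 1 section. Over the alternatives that gave a value, the bone ratio of Loaded over Control ranged from 0.75 to 2.05 for *Tnc*. It ranged from -2.0 to -1.06 for *Sparcl1*, and both genes were past the fold at each of these. For *Sparc* the range was 0.16 to 1.96. Another scaling moved the median ratio of all genes by over 0.1: for Loaded over Control by -0.16 in bone (TMM), 0.17 in the rim and 0.38 in the remaining spots (library totals), and for bone over remaining spots in Control by 0.62 (library totals).

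In Loaded over Control, *Thbs2* reversed in bone without Control block 2 (0.74) and without the first part of Control side A (0.46), and in the rim without Control rim block 2 (0.22) and without the first part of side A (0.08). Leaving out single blocks gave it -1.30 to 0.74 in bone and -1.28 to 0.22 in the rim. Against Control side B only, a split added after seeing the data, *Postn* was 0.21, *Fn1* 0.56, *Thbs2* 1.30 and *Thbs3* 0.34. In spots with a muscle share below 5%, *Thbs2* in Loaded bone over remaining spots was -0.64, and in Loaded rim over remaining spots *Postn* was -0.26 and *Fn1* -0.08. The cause of these changes was not tested.

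Counts of members past the fold also moved. Apart from the bone sides above, the shares of all genes past the fold are not given for these settings. The median ratio of all genes moved as well, for Loaded over Control in bone from 0.08 to -0.08 with TMM. The counts therefore do not set the members apart from other genes. For Loaded over Control in bone, 1 member was higher against side A only, and 5 were higher and 1 lower against side B only. In bone spots below 5% muscle 1 was higher, on 28 Loaded and 17 Control spots with 599 genes counted. Not every member had a value at each setting. In the rim 0 were higher below 5% muscle and with a rim of 350 μm. In the remaining spots 4 were higher with library totals, 1 each without the 20 most abundant genes, without the muscle list and with a rim of 350 μm, and 3 were lower with equal spot weights and 1 below 5% muscle. For bone over rim in Control, 2 were higher with library totals, without the 20 most abundant genes, without the muscle list, with scran over the compared spots only, with equal weights and below 5% muscle, and 4 with a rim of 350 μm. In Loaded, 2 were lower with TMM, without the muscle list and with scran over the compared spots only, 0 with equal weights, below 5% muscle and with a rim of 150 μm, and 4 were higher with equal weights and a rim of 350 μm. Below 5% muscle, 2 were higher in Loaded bone over remaining spots. For rim over remaining spots, 1 was lower in Control with equal weights. In Loaded, 1 was higher and 1 lower below 5% muscle, 1 was lower with a rim of 150 μm, and 3 were higher and 1 lower with a rim of 350 μm.

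Leaving out 1 block at a time gave these ranges of members past the fold. They too are given without the shares of all genes, whose median ratio in bone was 0.14 without Control block 3. For Loaded over Control 1 to 4 were higher and 1 to 6 lower in bone, 0 to 3 higher and 1 to 6 lower in the rim, and 0 to 7 higher and 0 to 2 lower in the remaining spots. For bone over rim 1 to 5 were higher and 0 to 6 lower in Control, and 0 to 2 lower in Loaded. For bone over remaining spots 5 to 8 were higher in Control and 3 to 6 in Loaded. For rim over remaining spots 4 to 8 were higher in Control, and 3 to 7 higher and 0 to 1 lower in Loaded.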
